A study of Mus musculus with 8 samples.

Results

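Genes of cyclic nucleotide signalling were followed in glutamatergic neurons of the ventral pallidum (VP), a basal forebrain nucleus that receives input from the nucleus accumbens. They are 45 protein-coding genes, of 14353 genes in the deposited table, chosen by symbol. Their symbols begin with Adcy or Pde and a digit, with Gucy1, Gucy2, Prkac, Prkar or Rapgef2 to Rapgef6, or are Prkg1 or Prkg2. By role they are 8 adenylyl cyclases, 4 guanylyl cyclase genes, 17 phosphodiesterase genes, 8 kinase subunits and 5 Rap exchange factors. A further 3 genes, Pde4dip, Pde6d and Pde12, carry a Pde symbol although they encode no subunit of a cyclic nucleotide phosphodiesterase. The choice of genes rests on symbols and uses no measured value, but the family was picked with earlier results of these data known. All 45 passed the filter on low values. Genes of these families that are absent from the table, such as Pde2a, were not analysed here.

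Adenylyl and guanylyl cyclases make cAMP and cGMP, small intracellular messengers that carry the signals of dopamine, adenosine, opioid and many other receptors. Protein kinase A (PKA), protein kinase G (PKG), cyclic nucleotide-gated channels and the cAMP-gated Rap exchange factors, the Epac proteins of Rapgef3 and Rapgef4, respond to them. Phosphodiesterases remove these messengers. Medium spiny neurons of the striatum, which surround and innervate the VP, are known for high levels of the cyclase Adcy5 and of the phosphodiesterases Pde10a and Pde1b.

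All mice were VGluT2-Cre x Rpl22 animals, homozygous for VGluT2-Cre and heterozygous for Rpl22, and received no treatment. In these RiboTag mice Cre, driven by the Slc17a6 (vGluT2) locus, places a hemagglutinin tag on the ribosomal protein Rpl22, so that translating ribosome affinity purification (TRAP) collects mRNA on the ribosomes of cells in which Cre has acted. The libraries came from 4 pools of adult VP tissue, VP1.6 (3 male and 4 female mice, 9 to 12 weeks old), VP2.2 (4 and 6), VP2.6 (4 and 7) and VP2.11 (4 and 6, all 10 to 16 weeks old). Each pool gave 1 TRAP and 1 INPUT library, so n = 4 per fraction, and the 38 mice cannot be told apart within a pool. INPUT is labelled as holding all neurons and glia. Levels are in CPM as the authors scaled them (reads of a gene per effective library size, so that the listed values of a library sum to 855077 to 1109075), and a pool difference is TRAP minus INPUT of 1 pool on the log2 CPM scale. In tissue fractions of this kind, fewer cells of a type and less mRNA per cell cannot be told apart.

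The fractions carried the marks of their labels. Slc17a6, which defines the targeted neurons, was at 162, 130, 139 and 141 CPM in TRAP and at 23.6, 14.4, 26.3 and 39.4 CPM in INPUT (VP1.6 first, then VP2.2, VP2.6 and last VP2.11, the order used throughout). Its log2 fold change was 2.55. Of 5 general neuronal markers, 4 were higher in TRAP, and 5 of 6 oligodendrocyte markers, 4 of 6 astrocyte markers and 4 of 6 microglial markers were lower. Mag, the oligodendrocyte marker that was not lower, had a log2 fold change of 0.61. Oligodendrocyte precursor genes went differently, with Cspg4 higher in TRAP (log2 fold change 1.98) and none of the 3 listed lower. Of the 3 genes listed for GABAergic neurons, the vesicular transporter Slc32a1 fell, from 25.5 ± 6.22 CPM in INPUT to 10.9 ± 3.71 CPM in TRAP, although 24.9% of its exon bases are shared with other genes, which makes its reads uncertain. The GABA-synthesis genes Gad1 (613 ± 145 CPM in TRAP and 516 ± 170 in INPUT) and Gad2 (528 ± 142 and 560 ± 184, SD, n = 4) were not called.

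A gene was called where its limma adjusted p was under 0.05. The fit with the fraction alone called 47.9% of the 14249 genes tested and 20 of the 45 members. With the pool as a replicate block it called 32.2% of genes and 11 members. A member is said here to rise or fall only where both fits called it. By that rule 7 members (15.6%) were higher in TRAP, against 15.4% of all genes, and 4 members (8.89%) were lower, against 16.7% of all genes. TRAP and INPUT did not overlap for 18 members (40.0%), against 47.7% of all genes. These shares are given beside those of all genes with no test of the difference and are no result about the family. The members higher in TRAP were Adcy1, Gucy1a2, Gucy1b1, Gucy2g, Pde3a, Pde4dip and Rapgef3, and those lower in TRAP were Adcy5, Pde1b, Pde8a and Pde6d. Adcy5, Gucy1a2, Gucy1b1 and Rapgef3 were called in each of the 22 settings of the fit that were run.

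**Figure D1:**
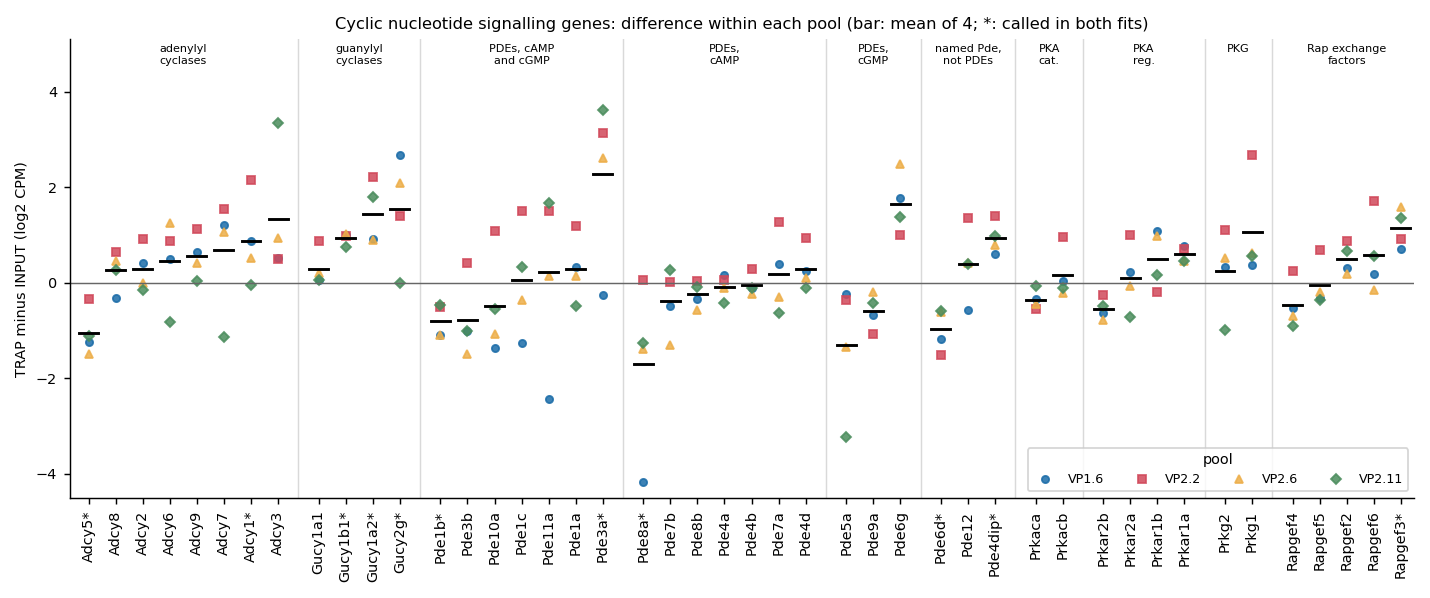
TRAP minus INPUT (log2 CPM) for each of the 45 members, grouped by role, with 1 symbol per pool and a bar at the mean of the 4 pools; an asterisk marks members called in both fits. Guanylyl cyclase genes lie at or above 0 in every pool, Adcy5 and Pde1b lie below 0 in every pool, and the VP2.2 symbol is the highest of the 4 in 28 of 45 members.

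Since cAMP acts on transcription through the cAMP response element, the 250 bases before each RefSeq transcript start of the members were searched on both strands for its full form TGACGTCA and for its shorter form TGACG, which the full form contains. RefSeq windows (GRCm38.p6) were at hand for 37 of the 45 members, with 76 windows in all, since a gene can have several starts. A window can therefore lie inside the annotated span of the gene, as the stretches printed for Prkar1a and Rapgef3 do, or away from the gene's annotated start. The full form occurred in 1 member window (1.32%), that of Prkar1a, against 1.55% of all 32851 windows. The short form occurred in 16 member windows (21.1%), against 17.8% of all windows. Of the 11 called members 10 had a window and 4 held the short form. That count is per gene and cannot be set beside the shares per window. Members not called, such as Prkacb, Pde4b and Prkar1b, held the short form as well. The stretches of Prkar1a and of those 4 genes are shown to let the sites be compared, in gene direction with the motif, read in either orientation, in capitals. They lie at chr11:109650870-109650937 (Prkar1a, plus strand), chr3:82074712-82074769 (Gucy1b1, minus), chr9:3532213-3532277 (Gucy1a2, plus), chr15:97767823-97767887 (Rapgef3, minus) and chr7:81213151-81213215 (Pde8a, plus). A match is a description of the sequence, and binding was not measured.
Prkar1a: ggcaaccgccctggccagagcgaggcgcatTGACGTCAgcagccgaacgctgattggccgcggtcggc
Gucy1b1: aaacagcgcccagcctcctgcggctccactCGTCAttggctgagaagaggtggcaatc
Gucy1a2: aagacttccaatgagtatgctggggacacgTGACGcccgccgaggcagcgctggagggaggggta
Rapgef3: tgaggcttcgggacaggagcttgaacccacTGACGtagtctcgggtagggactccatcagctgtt
Pde8a: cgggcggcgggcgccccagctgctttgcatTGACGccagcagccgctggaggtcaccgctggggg

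Among the adenylyl cyclases, 1 of 8 rose in TRAP (Adcy1), 1 fell (Adcy5), and the median log2 fold change was 0.50. Adcy5 (ENSMUSG00000022840, GRCm38 chr16:35154877-35305738), the cyclase through which striatal dopamine and adenosine receptors act, was at 67.9, 99.6, 62.2 and 61.4 CPM in TRAP and at 160, 125, 174 and 133 CPM in INPUT. Every TRAP library lay below every INPUT library, and the gap was smallest in VP2.2. The log2 fold change was -1.04 (SE 0.18, limma adjusted p = 0.0012 without and 0.0039 with the replicate block), and the exact two-sided permutation p over the 8 libraries was 0.029, the smallest that 4 against 4 can give. That test, also where it is given for other genes, lets all 8 libraries change places and ignores the pools. Exchange within pools could not go below 0.125. Adcy5 nevertheless remained the most abundant cyclase of the TRAP libraries per kb of exon, at 10.1 ± 2.52 CPM per kb against 20.6 ± 3.16 in INPUT (SD, n = 4). Adcy2 came next in TRAP at 7.91 ± 1.18 CPM per kb, a gap no wider than the spread of Adcy5.

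Adcy1 (ENSMUSG00000020431, chr11:7063489-7178506), a cyclase stimulated by calcium and calmodulin, was at 52.8, 68.0, 47.5 and 38.3 CPM in TRAP and at 28.8, 15.2, 33.1 and 39.7 CPM in INPUT. TRAP was higher in 3 pools, most in VP2.2, and level with INPUT in VP2.11. The log2 fold change of 0.88 (SE 0.28, limma adjusted p = 0.026 and, with the block, 0.039) depended on the pools. It was 0.45 without VP2.2 and not called in either fit, nor in either fit without VP1.6 or in the fit without the block when VP2.6 was left out. With the trend of change on exon length taken out it was 0.41 and not called (adjusted p = 0.16 and, with the block, 0.23). For Adcy9, another widely expressed cyclase, TRAP minus INPUT was 0.56 (log2), called without the block alone (adjusted p = 0.024 and 0.12). The other 5 cyclases were called in neither fit, with log2 fold changes from 0.27 (Adcy8) to 1.33 (Adcy3). Reads of Adcy3 are uncertain, because 22.1% of its exon bases are shared with other genes, and VP2.11 stands apart, where the pool difference was 3.35 against 0.50 to 0.95 in the other pools.

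Counted per kb of exon, the makeup of the cyclase family differed between the fractions. Adcy5 made up 33.5%, 38.8%, 33.2% and 35.1% of the summed cyclase level in TRAP and 63.5%, 64.5%, 62.8% and 54.1% in INPUT. Adcy2 made up 27.7% ± 1.42 in TRAP and 19.2% ± 1.67 in INPUT, and Adcy1 14.3% ± 1.19 and 6.80% ± 1.93 (SD, n = 4). The fractions did not overlap in any of these 3 shares. The shares of a family are bound to each other, so that a lower share of Adcy5 raises the others.

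**Figure D2:**
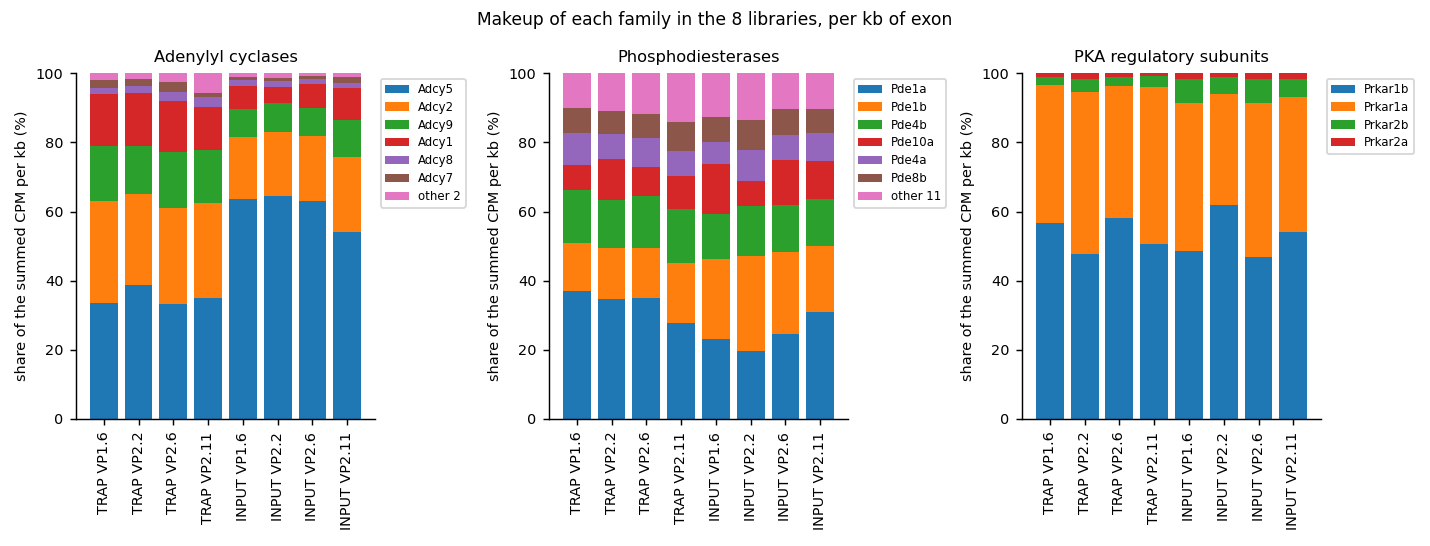
Makeup of the adenylyl cyclases, phosphodiesterases and PKA regulatory subunits in each of the 8 libraries, as the share (%) of the family's summed CPM per kb of exon. Adcy5 fills 33.2% to 38.8% of the cyclase column in TRAP and 54.1% to 64.5% in INPUT, and Prkar1a with Prkar1b fills most of the regulatory subunit column in every library.

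All 4 guanylyl cyclase genes had mean levels above INPUT, and 3 of them rose (median log2 fold change 1.20). Gucy1b1 (ENSMUSG00000028005, chr3:82032006-82074689), the obligate beta subunit of the soluble cyclase that nitric oxide activates, was at 477, 412, 468 and 443 CPM in TRAP and at 237, 207, 229 and 261 CPM in INPUT. The fractions were far apart in every pool, with pool differences of 1.01, 0.99, 1.03 and 0.76. Gucy1b1 had a log2 fold change of 0.95 (SE 0.12, limma adjusted p = 0.00028, with the block 0.0038, exact permutation p = 0.029). Gucy1a2 (ENSMUSG00000041624, chr9:3532778-3894736), which encodes an alpha subunit of the same enzyme, was at 11.5, 16.0, 12.2 and 23.9 CPM in TRAP and at 6.06, 3.47, 6.56 and 6.92 CPM in INPUT. It was higher in every TRAP library, with a log2 fold change of 1.45 (SE 0.29, limma adjusted p = 0.0025 and 0.0036). The other alpha subunit gene, Gucy1a1, was at 267 ± 22.9 CPM in TRAP and 219 ± 36.9 CPM in INPUT (SD, n = 4), and its log2 fold change of 0.30 was not called (limma adjusted p = 0.13, with the block 0.32, 95% confidence interval with the block -0.18 to 0.78).

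Per kb of exon, Gucy1b1 was the most abundant guanylyl cyclase gene of the TRAP libraries at 115 ± 7.41 CPM per kb (SD, n = 4). Gucy1a1 was at 38.4 ± 3.28, and Gucy2g at 3.43 ± 0.947 and Gucy1a2 at 2.39 ± 0.857 overlapped in their spread. Per kb of the longest transcript Gucy2g was at 3.43 and Gucy1a2 at 4.92 in TRAP, so that their order turned. Of the summed level of Gucy1a1 and Gucy1b1, the beta subunit held 77.0%, 70.9%, 75.9% and 75.7% in TRAP and 63.6%, 69.0%, 63.9% and 65.7% in INPUT. The difference was small in VP2.2 and 9.98 to 13.4 percentage points in the other pools.

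Gucy2g (ENSMUSG00000055523, chr19:55198099-55241236), which encodes a membrane guanylyl cyclase, was at 16.6, 12.0, 15.9 and 8.75 CPM in TRAP and at 2.6, 4.54, 3.73 and 8.75 CPM in INPUT. TRAP was higher in 3 pools and equal to INPUT in VP2.11. This gave a log2 fold change of 1.54 (SE 0.36, limma adjusted p = 0.0053 and 0.0092), and the call was lost in the blocked fit without VP1.6.

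The source of the soluble cyclase's activator moved the same way. Nos1, the neuronal nitric oxide synthase, was at 135, 150, 149 and 154 CPM in TRAP and at 72.0, 42.8, 64.2 and 73.5 CPM in INPUT. The groups did not overlap, and the log2 fold change was 1.25 (SE 0.17, limma adjusted p = 0.00038, with the block 0.00090). Of the 9 nitric oxide synthase, natriuretic peptide and receptor genes listed, 5 were in the table, and Nos1 was the only one of these 5 called. The endothelial synthase gene Nos3 was at 3.40 ± 1.16 CPM in TRAP and 5.02 ± 1.42 CPM in INPUT.

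**Figure D3:**
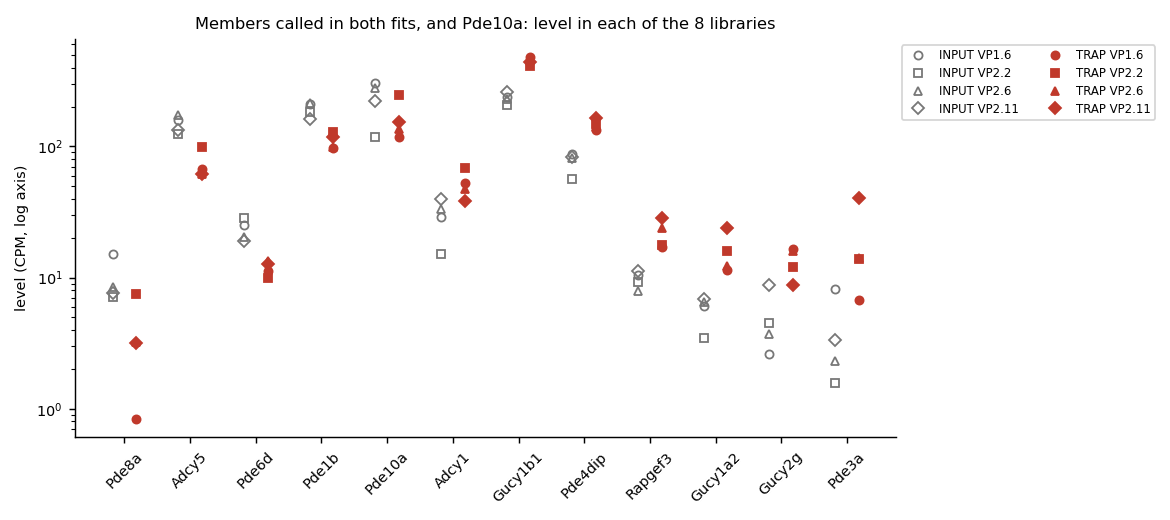
Level (CPM, log axis) in each of the 8 libraries for the 11 members called in both fits and for Pde10a, in order of log2 fold change, with open symbols for INPUT, filled symbols for TRAP and 1 shape per pool. For Gucy1b1, Gucy1a2, Rapgef3 and Pde4dip every filled symbol lies above every open symbol, for Adcy5, Pde1b and Pde6d every filled symbol lies below, and for Pde10a the VP2.2 pair is reversed.

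Of the 17 phosphodiesterase genes 1 rose (Pde3a), 2 fell (Pde1b and Pde8a), and the median log2 fold change was -0.08. Pde1b (ENSMUSG00000022489, chr15:103503034-103530052), a calcium- and calmodulin-activated enzyme that cleaves cAMP and cGMP, was at 97.5, 130, 98.9 and 118 CPM in TRAP and at 209, 184, 213 and 162 CPM in INPUT. The groups did not overlap, with pool differences of -1.10, -0.50, -1.10 and -0.46. For Pde1b the log2 fold change was -0.79 (SE 0.15, limma adjusted p = 0.0015, with the block 0.013, exact permutation p = 0.029), and the call was lost in the blocked fits without VP1.6 and without VP2.6.

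Its paralogue Pde1a (ENSMUSG00000059173) was the most abundant phosphodiesterase of the TRAP libraries per kb, at 45.8 ± 8.71 CPM per kb (SD, n = 4). Pde1a was at 289, 335, 268 and 209 CPM in TRAP and at 229, 147, 244 and 292 CPM in INPUT, so the fractions overlapped and VP2.11 went the other way. The log2 fold change of 0.29 was not called (limma adjusted p = 0.28, with the block 0.41, 95% confidence interval -0.26 to 0.85). Per kb, Pde1a made up 33.6% ± 4.09 of the phosphodiesterase level in TRAP and 24.5% ± 4.70 in INPUT, and Pde1b 15.2% ± 1.52 and 23.4% ± 3.39. The Pde1a shares of the fractions overlapped, since VP2.11 again went the other way, at 27.7% in TRAP and 30.9% in INPUT. For Pde1c, the remaining member of that subfamily, the log2 fold change was 0.06.

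Pde3a (ENSMUSG00000041741, chr6:141249269-141507448), whose cAMP hydrolysis is inhibited by cGMP, was at 6.81, 13.8, 14.2 and 40.8 CPM in TRAP and at 8.17, 1.58, 2.30 and 3.32 CPM in INPUT. It was higher in TRAP in 3 pools and slightly lower in VP1.6. At 2.28, its log2 fold change (SE 0.58, limma adjusted p = 0.0084, with the block 0.0035) was the highest among the members. Without the block the call was lost when VP2.2 or VP2.6 was left out, at log2 fold changes of 1.99 and 2.16. The log2 fold change was 3.12 without VP1.6 and 1.83 without VP2.11, called in both fits. Pde3a is also known from blood vessels, and the endothelial markers in the table (Flt1, Ly6c1 and Pecam1, 3 of 5 listed, with Cldn5 and Tek not analysed here) varied between libraries as well. Their summed level was 20.2, 6.45, 10.4 and 50.3 CPM in TRAP and 3.51, 41.7, 10.3 and 6.59 CPM in INPUT, with Ly6c1 the most abundant and 1 called (Flt1, higher in TRAP). Of 5 genes listed for pericytes and smooth muscle, 4 were in the table, none was higher and 1, Acta2, was lower, at 2.95, 0.986, 1.21 and 0.334 CPM in TRAP and 4.96, 6.29, 5.45 and 5.06 CPM in INPUT. The summed level of these 4, with Vtn the most abundant and Kcnj8 not analysed here, was 41.8, 33.7, 28.7 and 33.0 CPM in TRAP and 40.1, 48.5, 48.8 and 42.5 CPM in INPUT. In TRAP, VP2.11 was the highest library for Pde3a and the endothelial sum and the lowest for Acta2. Other pools went differently. In VP1.6, Pde3a was at its lowest TRAP level while the endothelial sum was higher in TRAP than in INPUT. In VP2.2, Pde3a was higher in TRAP while the endothelial sum was lower. The part of vessel cells in the result was not tested.

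Pde8a (ENSMUSG00000025584, chr7:81213596-81334533), a cAMP-specific enzyme, was at 0.839, 7.47, 3.25 and 3.18 CPM in TRAP and at 15.1, 7.10, 8.52 and 7.62 CPM in INPUT. The pool difference was -4.17 in VP1.6, -1.39 and -1.26 in VP2.6 and VP2.11 and 0.07 in VP2.2. The log2 fold change of -1.69 (SE 0.55, limma adjusted p = 0.028 and 0.025) was -0.86 without VP1.6 and then not called in either fit. Without VP2.6 or VP2.11 it was -1.79 and -1.83, called with the block and not without it.

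The other cAMP-specific enzymes, of the Pde4, Pde7 and Pde8 subfamilies, had log2 fold changes from -0.37 to 0.30, and both fits left them uncalled. Pde4b (ENSMUSG00000028525), the most abundant of them per kb in TRAP, was at 210, 233, 201 and 208 CPM in TRAP and at 224, 190, 236 and 224 CPM in INPUT. Its log2 fold change was -0.04, with a 95% confidence interval of -0.49 to 0.41 in the blocked fit. With the exon length trend taken out it was -0.44, called without the block (limma adjusted p = 0.0051) and not with it (0.076). Among the 3 genes of cGMP-specific enzymes, Pde9a (ENSMUSG00000041119) was at 18.5, 16.6, 21.9 and 18.8 CPM in TRAP and at 29.7, 34.8, 25.1 and 24.9 CPM in INPUT. The groups did not overlap, but the log2 fold change of -0.59 was called without the block alone (limma adjusted p = 0.012 and 0.082). The same held for Pde6g, which encodes an inhibitory subunit of the photoreceptor enzyme, at a low level and with a log2 fold change of 1.66 (adjusted p = 0.0052 and 0.060).

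Of the 3 genes named Pde that do not encode cyclic nucleotide phosphodiesterases, 1 rose and 1 fell, while Pde12, at a log2 fold change of 0.40, was called in neither fit. Pde4dip (myomegalin, ENSMUSG00000038170, chr3:97689824-97888707), a scaffold protein of the Golgi and centrosome, was at 134, 149, 141 and 164 CPM in TRAP and at 87.4, 56.3, 81.3 and 82.7 CPM in INPUT. Every TRAP library was higher, with a log2 fold change of 0.95 (SE 0.16, limma adjusted p = 0.00091 and 0.0043), which with the exon length trend taken out was 0.38 and no longer called with the block. Pde6d (ENSMUSG00000026239, chr1:86542994-86582629), a carrier of prenylated proteins, was at 11.3, 9.91, 13.4 and 12.6 CPM in TRAP and at 25.3, 28.3, 20.4 and 19.0 CPM in INPUT. It fell without overlap, with a log2 fold change of -0.97 (SE 0.18, limma adjusted p = 0.0015 and 0.013), and was not called in the blocked fit without VP1.6.

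Pde10a (ENSMUSG00000023868, chr17:8525372-8986648), the phosphodiesterase most typical of striatal medium spiny neurons, was at 119, 248, 135 and 153 CPM in TRAP and at 307, 118, 281 and 224 CPM in INPUT. TRAP was lower in 3 pools and higher in VP2.2, where the pool difference was 1.08 against -1.37, -1.06 and -0.55 elsewhere. Over the 4 pools the log2 fold change was -0.48 and was not called (limma adjusted p = 0.23, with the block 0.27, 95% confidence interval -1.16 to 0.21, exact permutation p = 0.34). Without VP2.2 the log2 fold change was -0.99 and both fits called it. It was also called lower with library weights and with the exon length trend taken out, each with and without the block.

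Adcy5, Pde1b and Pde10a were read beside 13 other genes of striatal medium spiny neurons, because tissue of the neighbouring striatum may be in the dissection. Of these 13 genes 12 were lower in TRAP and none higher, with a median log2 fold change of -1.42 against -0.05 over all genes tested; Rgs9, at -0.06, was not called. Their summed level was 677, 1010, 712 and 782 CPM in TRAP and 2430, 2240, 2380 and 1650 CPM in INPUT. The most abundant was Penk at 196 ± 58.5 CPM in TRAP and 636 ± 165 CPM in INPUT (SD, n = 4). The lowest in TRAP was Gpr6 at 4.83 ± 1.1 CPM. The median pool difference of the list was -1.70, -1.01, -1.86 and -1.16, so its weakest pool was VP2.2, as for Adcy5 and Pde10a. For Pde1b it was VP2.11 (-0.46, against -0.50 in VP2.2). Within the list, Ppp1r1b and Rxrg fell most in VP2.2. The fold changes of Adcy5 (-1.04), Pde1b (-0.79) and Pde10a (-0.48) were smaller than the median of the list. What part striatal RNA has in these levels was not tested.

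**Figure D4:**
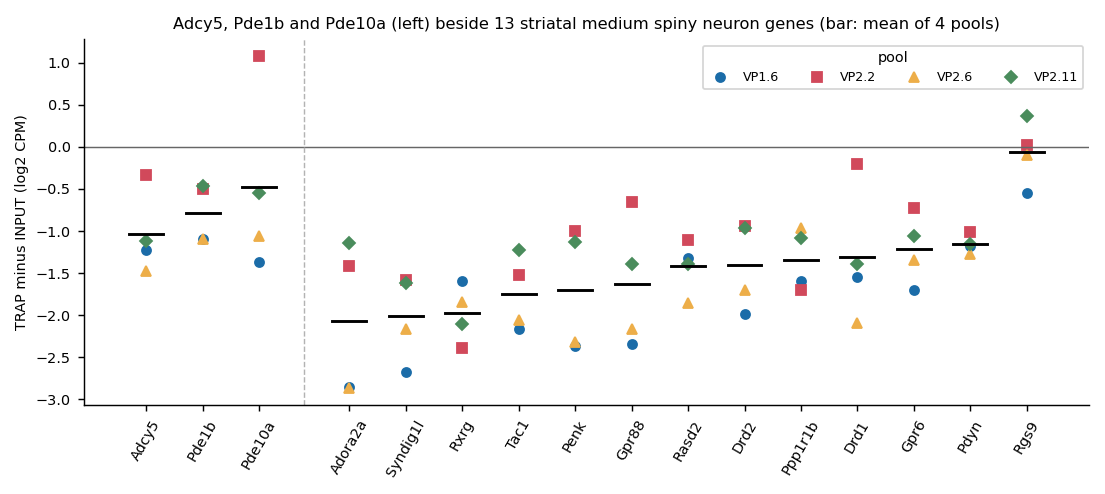
TRAP minus INPUT (log2 CPM) in each of the 4 pools for Adcy5, Pde1b and Pde10a, left of the dashed line, and for 13 other striatal medium spiny neuron genes, right of it, with a bar at the mean. All pool differences of 12 of the 13 list genes are below 0, while Pde10a stands at 1.08 in VP2.2.

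None of the 8 PKA and PKG subunits was called in both fits. Their levels per kb of exon differed widely. Prkar1b (ENSMUSG00000025855), a regulatory subunit of PKA found mainly in neurons, had the highest TRAP level per kb of all 45 members at 295 ± 63.4 CPM per kb, followed by the widely expressed Prkar1a at 231 ± 14.7 (SD, n = 4), and the spreads of the pair overlapped. That overlap is for the union of a gene's exons. Per kb of the longest transcript Prkar1b was at 426 and Prkar1a at 285 in TRAP. The member median was 4.38 CPM per kb of exon. Prkar1b was at 1370, 870, 1280 and 969 CPM in TRAP and at 648, 1000, 649 and 867 CPM in INPUT. It was higher in TRAP by pool differences of 1.08 and 0.98 in VP1.6 and VP2.6 and slightly lower in VP2.2, so that the log2 fold change of 0.51 was not called (limma adjusted p = 0.063, with the block 0.17, 95% confidence interval -0.08 to 1.09). It was called higher in both fits without VP2.2, at 0.74, and in both with library weights, at 0.83 and, with the block, 0.79. With the exon length trend taken out it was 0.57, called without the block (adjusted p = 0.030) and not with it (0.084), while without VP1.6 it was 0.31.

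Prkar1a was at 1000 ± 63.6 CPM in TRAP and 662 ± 58.5 CPM in INPUT, without overlap, with a log2 fold change of 0.60 and limma adjusted p of 0.0040 without and 0.061 with the block. Prkar2b, the regulatory subunit of the other class that is prominent in brain, was at 58.5 ± 5.98 CPM in TRAP and 85 ± 5.73 CPM in INPUT, also without overlap, with a log2 fold change of -0.54 and adjusted p of 0.0049 and 0.064 (SD, n = 4). Per kb, Prkar2a and Prkar2b together made up 3.51%, 5.56%, 3.57% and 3.96% of the regulatory subunits in TRAP and 8.60%, 6.14%, 8.59% and 6.86% in INPUT. That share was lower in TRAP in every pool, by as little as 0.58 percentage points in VP2.2.

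Prkacb (ENSMUSG00000005034), a catalytic subunit of PKA, was at 65.4 ± 8.99 CPM per kb in TRAP, overlapping in spread with the other catalytic subunit Prkaca at 56.1 ± 3.23 (SD, n = 4). Per kb of the longest transcript Prkacb was at 132 and Prkaca at 61.3 in TRAP, so the near tie depends on the length used. By library Prkacb was at 561, 688, 515 and 530 CPM in TRAP and at 549, 351, 596 and 572 CPM in INPUT. The fractions overlapped, and apart from VP2.2 the pool differences lay between -0.21 and 0.03. The log2 fold change was 0.17 (limma adjusted p = 0.48, with the block 0.63, 95% confidence interval -0.36 to 0.71) and turned to -0.10 without VP2.2. For Prkaca the log2 fold change was -0.35 (adjusted p = 0.036 and 0.22). Prkg2 (ENSMUSG00000029334), the more abundant PKG gene, was at 18.8, 23.7, 20.7 and 9.58 CPM in TRAP and at 14.9, 11.1, 14.5 and 19.0 CPM in INPUT, and its log2 fold change of 0.24 was not called (adjusted p = 0.50 and 0.60). Without VP2.11 it was 0.65, called without the block (adjusted p = 0.018) and not with it (0.11). For Prkg1 it was 1.06 (adjusted p = 0.032 and 0.090), with a pool difference of 2.68 in VP2.2 against 0.37 to 0.62 elsewhere.

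Of the 5 Rap exchange factors 1 rose. Rapgef3 (ENSMUSG00000022469, chr15:97744770-97767972), which encodes one of the Epac proteins that cAMP opens directly, was at 17.0, 17.7, 23.9 and 28.4 CPM in TRAP and at 10.4, 9.33, 7.89 and 11.2 CPM in INPUT. Every TRAP library lay above every INPUT library. Its log2 fold change was 1.15 (SE 0.20, limma adjusted p = 0.0013, with the block 0.0054, exact permutation p = 0.029). The gene of the other Epac protein, Rapgef4 (ENSMUSG00000049044), was at 52.2, 68.2, 48.5 and 41.1 CPM in TRAP and at 75.6, 57.0, 78.9 and 76.6 CPM in INPUT. TRAP was lower in 3 pools and higher in VP2.2, and the log2 fold change of -0.47 was called without the block alone (limma adjusted p = 0.048 and 0.14, 95% confidence interval with the block -0.98 to 0.04). Without the block that call was lost when VP1.6, VP2.6 or VP2.11 was left out. With the block Rapgef4 was called lower without VP2.2, at -0.71, with library weights, at -0.58, and with the exon length trend taken out, at -0.68. Per kb, Rapgef4 remained the more abundant of the pair in TRAP, at 7.86 ± 1.72 CPM per kb against 3.44 ± 0.854 for Rapgef3 (SD, n = 4).

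Of the pathway's genes outside these families, those listed as phosphoproteins stood lowest by median. All 5 fell, with a median log2 fold change of -1.34 against -0.05 over all genes tested: Ppp1r1b (DARPP-32), the PKA-controlled phosphatase inhibitor of striatal neurons, by 1.34 on the log2 scale, Arpp21 by 1.67, Arpp19 by 1.11, Pcp4 by 1.54 and Ppp1r1a by 0.77. Arpp21 was at 763 ± 99.7 CPM in TRAP and 2430 ± 400 CPM in INPUT (SD, n = 4). Ppp1r1b is also among the 13 striatal genes, and Pcp4, which binds calmodulin, shares 23.7% of its exon bases with other genes. The fall was largest in VP2.2 for each listed phosphoprotein but Arpp21, and these fold changes were not adjusted for exon length. What part striatal RNA or exon length has in these falls was not tested. Of the 3 genes for inhibitor proteins of PKA, 2 fell. Pkig went from 128, 157, 113 and 82.1 CPM in INPUT to 39.3, 43.5, 42.7 and 46.9 CPM in TRAP (log2 fold change -1.44, limma adjusted p = 0.00026 and 0.00045). Pkia went from 141, 119, 161 and 143 to 75.6, 97.7, 61.7 and 53.4 CPM (-1.0, adjusted p = 0.0018 and 0.0055). In both genes the fractions were clear of each other.

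Of 11 A-kinase anchoring proteins in the table (16 listed), which hold PKA at its sites of action, 2 rose and 2 fell. Akap8 and Akap8l, nuclear members, rose with log2 fold changes of 0.90 and 0.96, and Akap7 and Akap9 fell with -1.20 and -0.75. Among 6 CREB factors and coactivators Creb1, the cAMP-responsive transcription factor, rose from 36.0, 30.2, 37.2 and 44.0 CPM in INPUT to 64.6, 63.6, 63.0 and 57.7 CPM in TRAP (log2 fold change 0.77, limma adjusted p = 0.0015, with the block 0.016). Among 7 G protein alpha subunits that act on adenylyl cyclase, Gnai2 fell by 0.75 on the log2 scale and the others were not called. These included Gnal, the stimulatory subunit of striatal neurons, at 292 ± 64.6 CPM in TRAP and 317 ± 80.6 CPM in INPUT (SD, n = 4).

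One pool stood apart for these genes. The median pool difference of the 45 members was 0.16 in VP1.6, 0.92 in VP2.2, 0.11 in VP2.6 and -0.08 in VP2.11, while the median over all genes lay between -0.04 and -0.01 in each pool. VP2.2 gave the highest of the 4 pool differences for 28 members (62.2%), against 32.3% of all genes. In the blocked fit without VP2.2, 8 members were higher (17.8%, against 14.9% of all genes) and 7 lower (15.6%, against 14.3% of all genes), and the member median log2 fold change moved from 0.27 to -0.0031. Those higher without VP2.2 were Gucy1a2, Gucy1b1, Gucy2g, Pde3a, Pde4dip, Prkar1a, Prkar1b and Rapgef3, so that Adcy1 was lost and 2 PKA regulatory subunits were gained. Those lower were Adcy5, Pde10a, Pde1b, Pde6d, Pde8a, Prkar2b and Rapgef4. Gad1 and Gad2 also had their highest pool difference in VP2.2, at 1.66 and 1.29. The place of VP2.2 among the pools differed with exon length. Of the members up to 3810 exon bases, Pde6d, Pde6g, Prkaca, Pde9a and Prkar1b had their lowest pool difference in VP2.2. Prkar2b (3652 bases) had its highest there. So did all members of 12849 bases or more, Pde10a, Rapgef6, Rapgef2, Pde4dip and Pde1c, but not Pde3a (12737) or Pde7b (12444). What sets this pool apart, and the part of exon length in it, was not tested.

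Fold changes also rose with exon length over all genes (Spearman rho 0.412 over the 14249 tested, and genes are no independent replicates). The members were long, with a median of 6733 exon bases against 4274 over all genes tested. With this trend taken out of each pool difference, the direction of the calls shifted. Without the block 10 members were then higher (22.7% of all genes were) and 15 lower (22.8% of all genes), in place of 12 and 8. With the block 7 were higher (15.8% of all genes) and 7 lower (16.3% of all genes), in place of 7 and 4. The member median moved from 0.27 to 0.0022. Gucy1a2, Gucy1b1, Gucy2g, Pde3a and Rapgef3 stayed called higher, and Adcy5, Pde1b, Pde6d and Pde8a stayed called lower in both of these fits.

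**Figure D5:**
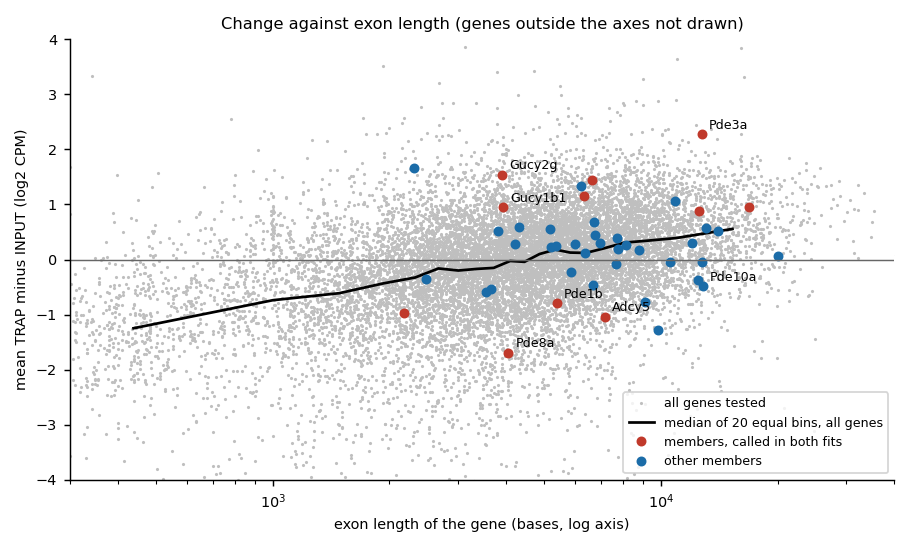
Mean TRAP minus INPUT (log2 CPM) against exon length (bases, log axis) for all genes tested (grey), with the median of 20 equal bins as a line, members called in both fits in red and other members in blue. The line climbs with length, and Gucy1b1, Gucy2g and Pde3a lie well above it while Adcy5, Pde1b and Pde8a lie well below.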

How the data were processed

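Ribosome-bound (TRAP) and INPUT RNA of 4 VP pools were sequenced as 8 libraries. The authors mapped the reads with STAR 2.5.1a to GRCm38, took uniquely mapped reads of each gene from featureCounts, and used TMM scaling (edgeR) and limma's voom with weights for library quality. The labels name the reference fraction an input, whereas the methods speak at 1 point of an unbound fraction. The values the authors deposited are log2 CPM per gene and library. The authors' own log2 fold changes, their p-values and their signed fold change, a score, are in the deposited table and were not used, nor was its deposited number of transcripts per gene.

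The table has 14398 entries, 45 of them repeats, which were dropped. Genes above 1 CPM in 3 or more libraries (14249) were tested with limma 3.58.1 (lmFit, eBayes with a trend, R 4.3.3) on the deposited log2 values, two-sided, with Benjamini-Hochberg adjustment over all of them. The fraction was the only term, and the fit with the pool as a replicate block was computed beside it. Fold changes are the same in both. The pairing comes from the labels, which give both fractions of a pool the same name, and from the methods. Libraries of the same pool deviated from their fraction means in opposite directions (correlation across genes -0.745 to -0.495, mean -0.661). The mean of 0.222 for different pools is tied to this by the centring on fraction means and is no separate comparison. The SE printed with a fold change is that of the fit without the block. It ignores the pairing and is too small where the fractions of a pool deviate in opposite directions. Among the members it was below the SE with the block (Gucy1b1 0.12 against 0.21, Adcy5 0.18 against 0.23). The exceptions were Pde3a (0.58 against 0.50) and Pde8a (0.55 against 0.53). The limma steps were tested on simulated data. P-values measure the spread between pools of tissue.

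Low values were used to estimate depth. In VP2.2, 2424 of 2425 genes under 4 CPM had a TRAP minus INPUT difference given by whole reads (within 2e-07 on the log2 scale), for library sizes near 14.4 M reads (TRAP) and 43.5 M reads (INPUT). In VP2.6 it was 2649 of 2650 genes, with 13.7 and 27.2 M reads. Values of single libraries showed no such steps, so no count test was run. With the opposed deviations within pools, the deposited levels look as if a shift per gene and pool had been taken out in part, which was not tested. Differences within a pool are free of such a shift, but levels of single libraries, their SDs, statements on overlap and permutation p over 8 libraries are not. Rounding hides the depth of VP1.6 and VP2.11.

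Exon length is the union of a gene's exons in GENCODE M21 (GRCm38), looked up by Ensembl identifier. The exon length trend was a lowess curve per pool difference. Confidence intervals (95%) are from the blocked fit. Members, pathway lists and marker lists were chosen with earlier results of these data known. Values in every library are given for Adcy5, Pde10a, Pde1b, the members called in both fits and the member with the highest TRAP level per kb of each role. Alternatives covered the block, library weights, filters on low values, the pseudocount, scaling, exon length, the trend in eBayes and each pool left out. The combinations of the block with quantile normalization, median centring and a pool left out were added after seeing the data. A further pathway list is not reported here.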

Additional observations from a re-analysis of the deposited data

Results flagged for a closer look

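In INPUT of VP2.2, 3 named members lay far below the other 3 INPUT libraries. Prkacb was at 8.45 log2 CPM there against 9.10 to 9.22 in the others, Pde4dip at 5.81 against 6.34 to 6.45, and Rapgef4 at 5.83 against 6.24 to 6.30. Of 38 groups of 4 libraries examined by Dixon's test (critical value 0.829), these 3 passed, and chance gives about 1.9. All of them concern the same library, and the cause was not tested.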

How the results depend on the processing

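Over all genes, 6830 were called without and 4592 with the replicate block. Leaving out 1 pool gave 4862 to 6894 calls, and 3232 to 4156 with the replicate block, median centring with the block gave 4495, and library weights gave 8645, or 6013 with the block. Of the members, 12 were called higher without the block and 7 with the replicate block, with the exon length trend taken out and the block, and with median centring and the block, with 16 under library weights (10 with the block), and leaving out 1 pool gave 8 to 14 (5 to 8 with the block). Called lower were 8 without the block and 4 with the replicate block, 13 with library weights (9 with the block), 15 with the exon length trend taken out, 5 with quantile normalization and the block, and 4 with median centring and the block, and leaving out 1 pool gave 4 to 9 (1 to 7 with the block, where 1 was without VP1.6). The members' median TRAP level was 4.38 CPM per kb of exon and 7.25 per kb of the longest transcript. Of 398 values of the 19 named members under alternatives, 334 kept direction and call, 39 lost the call, 13 gained it and 12 changed sign, all of the latter in members called neither without nor with the block over the 4 pools. Those were Pde1a (-0.0031 without VP2.2, to 0.55 without VP2.11), Pde4b (0.029 without VP2.6, to -0.15 without VP2.2, and -0.44 with the exon length trend taken out), Prkg2 (-0.046 without VP2.2, to 0.65 without VP2.11, called there without the block) and Prkacb, at 0.30 without VP2.6, but at -0.04 with library weights, -0.0026 with library weights and the block, -0.17 with the exon length trend taken out, with or without the block, and -0.10 without VP2.2. The cause was not tested. With 4 pools, and depth known for 2 of them, members near 1 CPM, such as Pde5a and Pde6g, rest on few reads.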
